A study of Mus musculus with 8 samples.

Results

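Glycolysis turns glucose into pyruvate in a chain of cytosolic reactions, and the pentose phosphate pathway branches off after the opening phosphorylation of glucose to make NADPH and ribose. Pyruvate is then reduced to lactate by lactate dehydrogenase and leaves the cell through monocarboxylate transporters, or enters mitochondria, where pyruvate dehydrogenase feeds it to the tricarboxylic acid cycle and pyruvate dehydrogenase kinases hold that entry back. Blood stem cells are known for a high use of glycolysis relative to mitochondrial respiration, and progenitors are known to lean more on mitochondria as they divide. The genes described here were a list of 33 genes of these steps, taken by their names out of 37980 gene rows in the table. All 33 were found and 32 were tested. Slc16a3 did not pass the filter on low values.

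RNA was sequenced from multipotent progenitors (MPPs) of C57BL/6 mouse bone marrow, sorted by the surface markers Lin-, CD48-, ckit+, Sca1+, CD135+ and CD150-, with 1000 cells in each library. The NA group, of 4 libraries, carried the NUP98-HOXA10hd fusion gene (NA), in which the homeodomain of HOXA10, its DNA-binding part, is fused to a nuclear pore protein. The fusion was inserted behind a stop cassette at Rosa26, and in NA LSL/+; Vav-Cre mice the Cre is driven by the Vav promoter, so that the whole blood system and not only MPPs expressed it. The WT group, of 4 libraries, came from CD45.2 mice of matched age, for which no Cre is described, and ages and sexes are not given in the sources used here. No agent is described for either group. Nothing in the labels says that each library came from a separate mouse, so the p-values measure the spread between these libraries, which may be technical. The comparison asks which transcripts of glucose use differ in MPPs that express the fusion.

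Values are normalised counts, that is, estimated reads per gene divided by 1 scaling factor per library. Depth was estimated at 3876859 to 4916903 reads per library. The labelled cells carried Kit, Flt3, Cd34 and Ptprc, and Cd48, a marker the gate excludes, lay at 12.2 to 22.4 in NA and at 34.2 to 83.8 in WT MPPs. Summed with Slamf1, the other excluded marker listed, levels were 25.9 to 60.2 in NA and 52.4 to 114 in WT MPPs, with overlap. Of these 2 markers, 1 was called lower by limma, where 7.87% of all genes were, and neither without the fourth library of each group. Ly6a, which encodes Sca1 of the gate, was also lower, at 1221 to 1408 against 1482 to 1614 (log2 fold change -0.28, limma adjusted p = 0.0257, and 0.163 without the fourth library of each group). The fourth library of each group stood closer to a weighted sum of the other 3 than estimated for a library with independent deviations. The excess variance left was 0.00768 against at least 0.00959 for NA4, and 0.00207 against at least 0.00824 for WT4. Separate libraries that share a source of variation could also lie below that limit, so whether NA4 and WT4 are separate was not settled. Results are therefore given with and without NA4 and WT4. Xist was at 0.940 to 2.80 in the NA libraries and at 868.6 to 1285 in the WT libraries, and the Y-linked Eif2s3y was at 516 to 666 and at 0 to 0.888, so sex and genotype cannot be told apart. Members on the X chromosome were Pgk1, Pdha1, Pdk3 and G6pdx. Of 16 early response genes, which answer to stress and handling, 14 were tested. By limma, 10 were higher in NA MPPs at an adjusted p below 0.05, where 10.1% of all genes were. Without NA4 and WT4, 6 were called higher, where 3.31% of all genes were. Summed levels of the 16 were 43953 to 52514 in NA and 6043 to 19429 in WT MPPs. Of 8 megakaryocyte markers 7 were tested and none was called by limma. At an unadjusted p below 0.05, 1 was higher, where 16.9% of all genes were. The megakaryocyte markers had summed levels of 2863 to 3117 in NA and 2660 to 2823 in WT MPPs. The part of these genes in the results below was not tested. In bulk samples, fewer cells that express a gene and less RNA per cell cannot be told apart.

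Of the pathway genes, a lactate transporter, a hexokinase and the E1 alpha subunit of pyruvate dehydrogenase were higher in NA MPPs, and other hexokinases, an isomerase, an aldolase and a lactate dehydrogenase were lower. By limma, with p-values adjusted by the Benjamini-Hochberg method over all 11451 genes tested and a threshold of 0.05, 3 members were called higher in NA MPPs, namely Slc16a1, Hk2 and Pdha1. That was 9.38% of the 32 tested, where 10.1% of all genes were called higher. Another 5 members were called lower, namely Hk1, Hk3, Gpi1, Aldoa and Ldha. That was 15.6% of those tested, where 7.87% of all genes were called lower. The other 24 did not pass, so that 8 of 32 were called in either direction, where 17.9% of all genes were. Log2 fold changes were below 0 for 23 of the 32 members, or 71.9%, against 51.2% of all genes. The median over members was -0.19, against -0.011 over all genes tested. Without NA4 and WT4, the same 3 members were called higher and Aldoa alone was called lower, where 3.31% and 1.27% of all genes were called, or 4.58% in either direction. Then 24 members lay below 0 and the median was -0.18. Transcripts of the members held 53.5% G and C at the median against 50.1% for all genes. With the trend on GC content removed, the median was -0.12 and 3 members were called higher and 3 lower, where 9.33% and 7.66% of all genes were. Together the 33 genes held 0.414% to 0.474% of the total of each NA library and 0.493% to 0.511% of each WT library, without overlap. Their summed normalised counts did overlap, at 19125 to 21492 in NA and 21424 to 22411 in WT MPPs.

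**Figure D1:**
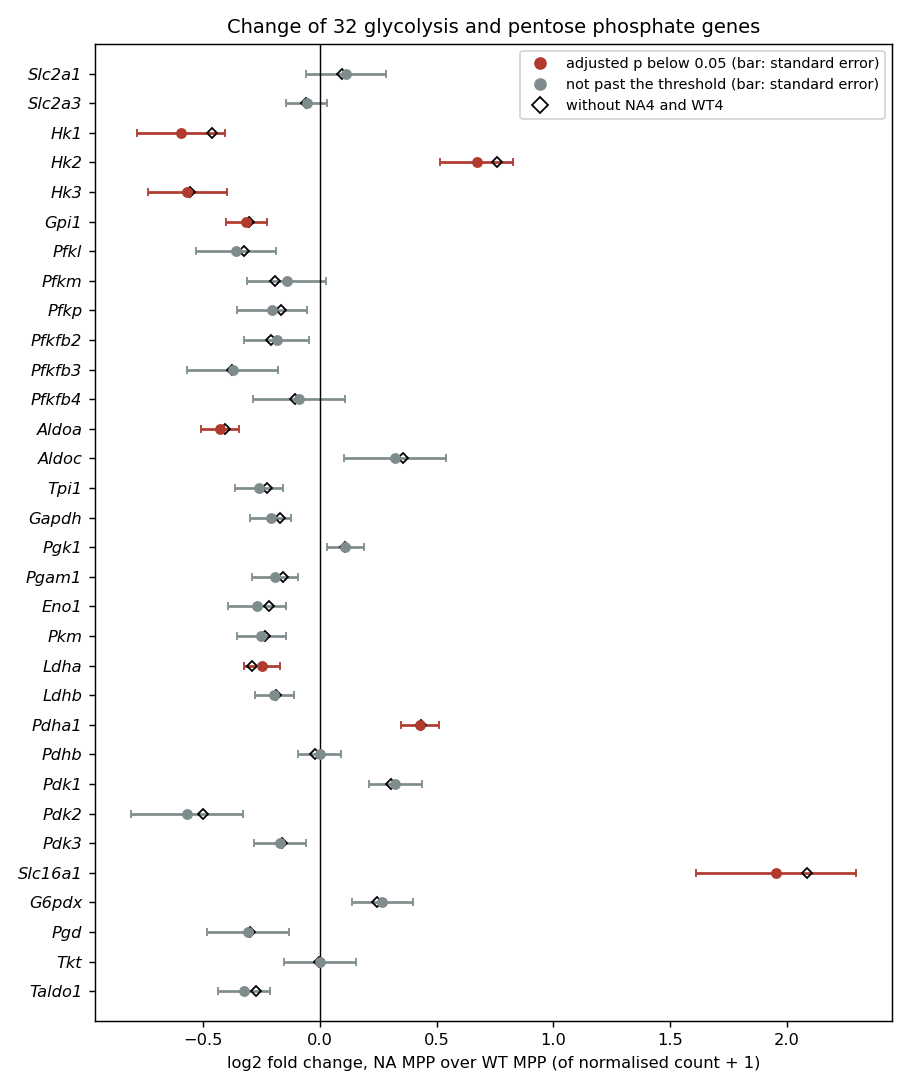
Log2 fold change of NA over WT MPPs (x axis, on log2 of the normalised count plus 1) for the 32 members tested, from glucose entry at the top to the pentose phosphate pathway at the bottom. Filled points are estimates with their standard error, red where the adjusted p was below 0.05, and open diamonds leave out NA4 and WT4. Slc16a1 stands apart at 1.95, and 23 of 32 points lie below 0.

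The largest change was that of Slc16a1 (ENSMUSG00000032902), which encodes the proton-coupled transporter that moves lactate and pyruvate across the plasma membrane. It measured 141, 145, 175 and 151 normalised counts in NA1 to NA4 and 38.2, 71.3, 15.9 and 50.6 in WT1 to WT4. Every NA library lay above every WT library, and the WT libraries varied more among themselves. Means were 153 ± 15.5 and 44.0 ± 23.2 (n = 4 each, SD), a 3.48-fold difference. The log2 fold change was 1.95 (SE 0.34, limma adjusted p = 0.00169), and 2.08 without NA4 and WT4 (adjusted p = 0.0134). It was called in all 21 alternative settings.

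Slc16a3 (ENSMUSG00000025161) encodes the related transporter known for lactate export from highly glycolytic cells. It was at 0, 0.940, 0 and 0 normalised counts in NA1 to NA4 and at 4.44, 5.66, 5.69 and 5.33 in WT1 to WT4. These are 1 estimated read over the NA libraries and 21 over the WT libraries, with 5 to 6 in each WT library. The WT to NA ratio of reads per depth was 22.3, with an exact 95% interval of 3.59 to 924 that covers counting error only. Both transporters thus stood apart between the groups in opposite directions, but Slc16a3 was too low to pass the filter of the main test. With no low-value filter all 33 members were tested. Slc16a3 was then among 3 members called lower by limma, where 704 of 17710 genes were, on the few reads given above.

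The starts of the members called higher are shown, with that of Gpi1, the only member called lower that lacks ACGTG. They are shown because the hypoxia-inducible factors and MYC, known regulators of glycolysis genes, bind cores that include ACGTG and CACGTG. Other forms of these cores were not counted. Sequences are from RefSeq on GRCm38.p6, the build called mm10 in the submitters' processing notes, and run 300 bases on the strand of the gene, from 250 before to 50 after the start. Capitals mark ACGTG on either strand (CACGT is its reverse complement), which lies also within CACGTG. They show Slc16a1 at chr3:104638414-104638713 (plus strand), Hk2 at chr6:82774405-82774704 (minus), Pdha1 at chrX:160138381-160138680 (minus) and Gpi1 at chr7:34230287-34230586 (minus).
Slc16a1: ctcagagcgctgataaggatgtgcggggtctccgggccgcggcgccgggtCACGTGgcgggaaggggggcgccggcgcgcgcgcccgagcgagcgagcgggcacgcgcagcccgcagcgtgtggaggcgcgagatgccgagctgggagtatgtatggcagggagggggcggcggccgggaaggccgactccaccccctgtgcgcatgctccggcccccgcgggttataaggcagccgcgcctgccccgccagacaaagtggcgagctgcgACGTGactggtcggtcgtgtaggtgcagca
Hk2: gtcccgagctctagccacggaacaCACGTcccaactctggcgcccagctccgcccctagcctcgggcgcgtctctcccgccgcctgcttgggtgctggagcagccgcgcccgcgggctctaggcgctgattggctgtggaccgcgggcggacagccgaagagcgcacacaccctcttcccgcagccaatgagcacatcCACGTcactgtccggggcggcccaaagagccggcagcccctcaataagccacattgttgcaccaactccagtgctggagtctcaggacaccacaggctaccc
Pdha1: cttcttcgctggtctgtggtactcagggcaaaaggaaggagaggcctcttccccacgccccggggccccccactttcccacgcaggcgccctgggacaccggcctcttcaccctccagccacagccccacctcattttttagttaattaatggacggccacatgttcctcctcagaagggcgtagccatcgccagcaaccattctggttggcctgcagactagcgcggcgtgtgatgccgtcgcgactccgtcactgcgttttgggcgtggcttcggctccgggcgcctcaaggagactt
Gpi1: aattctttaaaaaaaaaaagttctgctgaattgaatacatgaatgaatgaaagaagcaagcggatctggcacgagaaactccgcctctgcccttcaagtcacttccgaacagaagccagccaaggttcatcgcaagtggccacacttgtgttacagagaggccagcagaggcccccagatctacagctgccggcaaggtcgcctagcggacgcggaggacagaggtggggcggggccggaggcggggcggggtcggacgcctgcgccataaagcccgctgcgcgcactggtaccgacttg
The Slc16a1 window held 3 matches in 2 runs, of which 1 was CACGTG, and 42 CpG dinucleotides. The Hk2 window held 2 matches, and those of Pdha1 and Gpi1 held 0. RefSeq windows were matched for 32 of the 33 members, Slc2a3 being the other, and 49.0% of their 49 windows held ACGTG, against 19.6% of 32851 windows of all genes. For CACGTG the shares were 12.2% and 7.15%. Member windows were also richer in CpG, with a median of 20 against 7. Of the 8 members called, 6 had ACGTG in a window, namely Slc16a1, Hk1, Hk2, Hk3, Aldoa and Ldha, in both directions of change, and of 23 tested but not called, 13 had it. A match is a description of the letters and not of binding.

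The glucose transporter genes did not pass the test. Slc2a3, which encodes the high-affinity glucose transporter, measured 736 to 886 in NA and 800 to 859 in WT MPPs, with a log2 fold change of -0.06 (standard error 0.087, limma adjusted p = 0.692). Slc2a1, the widely expressed basal transporter gene, measured 159 to 198 and 124 to 195, with a log2 fold change of 0.11 (standard error 0.17, adjusted p = 0.680). Per kilobase of transcript, Slc2a3 lay at 200.4 ± 16.5 and Slc2a1 at 54.0 ± 5.37 normalised counts in NA MPPs, and at 208 ± 6.45 and 50.6 ± 10.7 in WT MPPs (n = 4 each, SD).

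The hexokinases, which trap glucose in the cell by phosphorylation, changed in opposite directions. Hk2 (ENSMUSG00000000628) is the inducible form. It measured 288, 317, 367 and 239 normalised counts in NA1 to NA4 and 175, 236, 167 and 179 in WT1 to WT4. The lowest NA library lay just above the highest WT library. Its log2 fold change was 0.67 (SE 0.16, limma adjusted p = 0.00972), and 0.76 without NA4 and WT4 (adjusted p = 0.0374). It was called in all 21 alternative settings.

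Hk1 (ENSMUSG00000037012), the housekeeping form, measured 119, 111, 144 and 76.8 in NA1 to NA4 and 166, 183, 165 and 154 in WT1 to WT4. The groups did not overlap, and NA4 was lowest. It fell by 0.59 on the log2 scale (SE 0.19, limma adjusted p = 0.0417). Hk3 (ENSMUSG00000025877), a form known from myeloid cells, measured 193, 114, 148 and 125 in NA1 to NA4 and 204, 224, 225 and 191 in WT1 to WT4. NA1 lay within the WT range and the other NA libraries below it. It fell by 0.57 (SE 0.17, limma adjusted p = 0.0335). Neither passed without NA4 and WT4, at -0.46 for Hk1 (adjusted p = 0.238) and -0.55 for Hk3 (adjusted p = 0.172). Both calls were also lost without NA2, NA4, WT1, WT2, WT3 or WT4 alone, with limma adjusted p from 0.0714 to 0.136 for Hk1 and from 0.0593 to 0.107 for Hk3. They were lost too with the GC trend removed (limma adjusted p = 0.0684 for Hk1 and 0.0682 for Hk3). The same held with no low-value filter and without a variance trend, and for Hk3 with depth class as a covariate. Markers of granulocytes and monocytes, which express Hk3, were also lower in sum, at 3133 to 3382 in NA and 3586 to 4700 in WT MPPs. Of 14 such markers, 5 were tested and 2 called lower by limma, where 7.87% of all genes were. None was called lower without NA4 and WT4 or with the GC trend removed, where 1.27% and 7.66% of all genes were. Elane was at 0 in all libraries. The part of these markers in the Hk3 result was not tested.

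Per kilobase of transcript, Hk2 made up 42.6% ± 4.56 of hexokinase transcripts in NA MPPs and 23.9% ± 2.36 in WT MPPs, Hk1 22.4% ± 2.38 and 30.3% ± 0.631, and Hk3 34.9% ± 6.09 and 45.8% ± 2.26 (n = 4 each, SD). In WT libraries Hk3 was the most abundant of the family, and in NA2, NA3 and NA4 it was Hk2. The sum of all 3 was 129 ± 21.8 normalised counts per kilobase in NA and 143 ± 12.1 in WT MPPs, with overlap. These shares are a description, chosen after the values were seen.

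**Figure D2:**
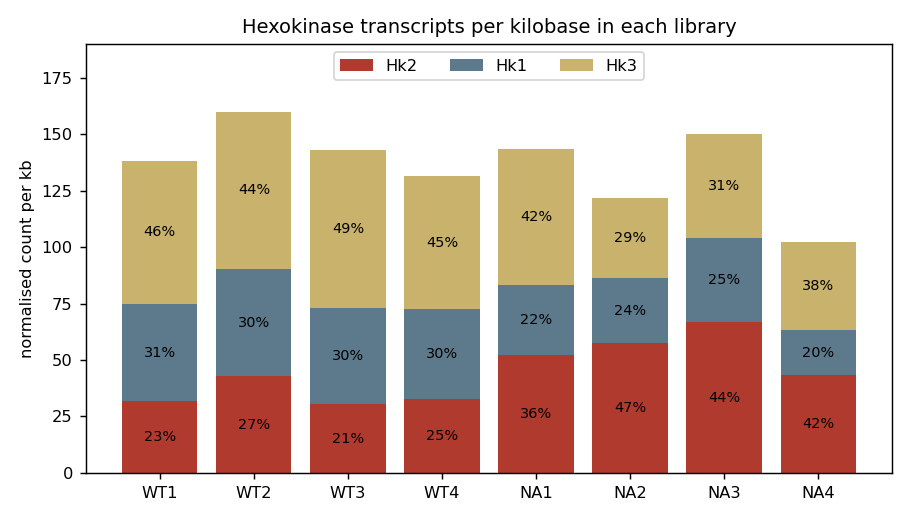
Normalised counts per kilobase of transcript (y axis) of the hexokinase genes in each of the 8 libraries, stacked, with the share of each gene printed in its bar. The Hk2 share is 21.2% to 26.7% in the WT libraries and 36.5% to 47.3% in the NA libraries, while the total height overlaps between the groups.

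From glucose 6-phosphate to the triose phosphates, Gpi1 and Aldoa fell and 7 other genes did not pass. Gpi1 (ENSMUSG00000036427) encodes the isomerase that makes fructose 6-phosphate. It measured 1530, 1421, 1773 and 1423 in NA1 to NA4 and 1832, 1975, 1997 and 1811 in WT1 to WT4. The groups did not overlap, with NA3 close to the WT range. It fell by 0.31 on the log2 scale (SE 0.087, limma adjusted p = 0.0231). The value was -0.30 without NA4 and WT4 (adjusted p = 0.134), and the call was lost without NA2, NA4, WT2 or WT3 alone (limma adjusted p from 0.0530 to 0.0736). The call was also lost without a variance trend (limma adjusted p = 0.0992).

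None of the phosphofructokinase subunit genes, which encode the main control point of the pathway, passed the test. Pfkl measured 133 to 193 in NA and 156 to 238 in WT MPPs (log2 fold change -0.36, limma adjusted p = 0.160). Pfkm measured 115 to 191 and 171 to 190 (-0.14, adjusted p = 0.594). Pfkp measured 145 to 185 and 157 to 225 (-0.20, adjusted p = 0.375), and it overlaps Pitrm1, at 181 to 292 over all libraries, on the other strand, where strand use in counting is not given in the sources used here. The PFKFB genes encode enzymes that set the level of the phosphofructokinase activator fructose 2,6-bisphosphate, and they too did not pass. Pfkfb2 lay at 200.4 to 243 and 205 to 296 (-0.18, adjusted p = 0.380), Pfkfb3 at 80.8 to 150.5 and 123 to 165 (-0.37, adjusted p = 0.202) and Pfkfb4 at 93.1 to 114 and 81.5 to 142 (-0.09, adjusted p = 0.789).

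Aldoa (ENSMUSG00000030695), the main aldolase, which splits fructose 1,6-bisphosphate, fell in NA MPPs. It measured 1298, 1328, 1522 and 1231 normalised counts in NA1 to NA4 and 1845, 1768, 1867 and 1729 in WT1 to WT4. All NA libraries lay below all WT libraries. It fell by 0.43 on the log2 scale (SE 0.083, limma adjusted p = 0.00313), and the value was -0.41 without NA4 and WT4 (adjusted p = 0.0416). It was called in all 21 alternative settings. Aldoc, an aldolase best known from brain, measured 136, 130, 218 and 132 in NA and 126, 165, 87.7 and 114 in WT MPPs, where NA3 stood above the other NA libraries (log2 fold change 0.32, limma adjusted p = 0.329). Per kilobase Aldoc made up 5.78% ± 0.970 of aldolase transcripts in NA and 3.58% ± 0.962 in WT MPPs (n = 4 each, SD).

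**Figure D3:**
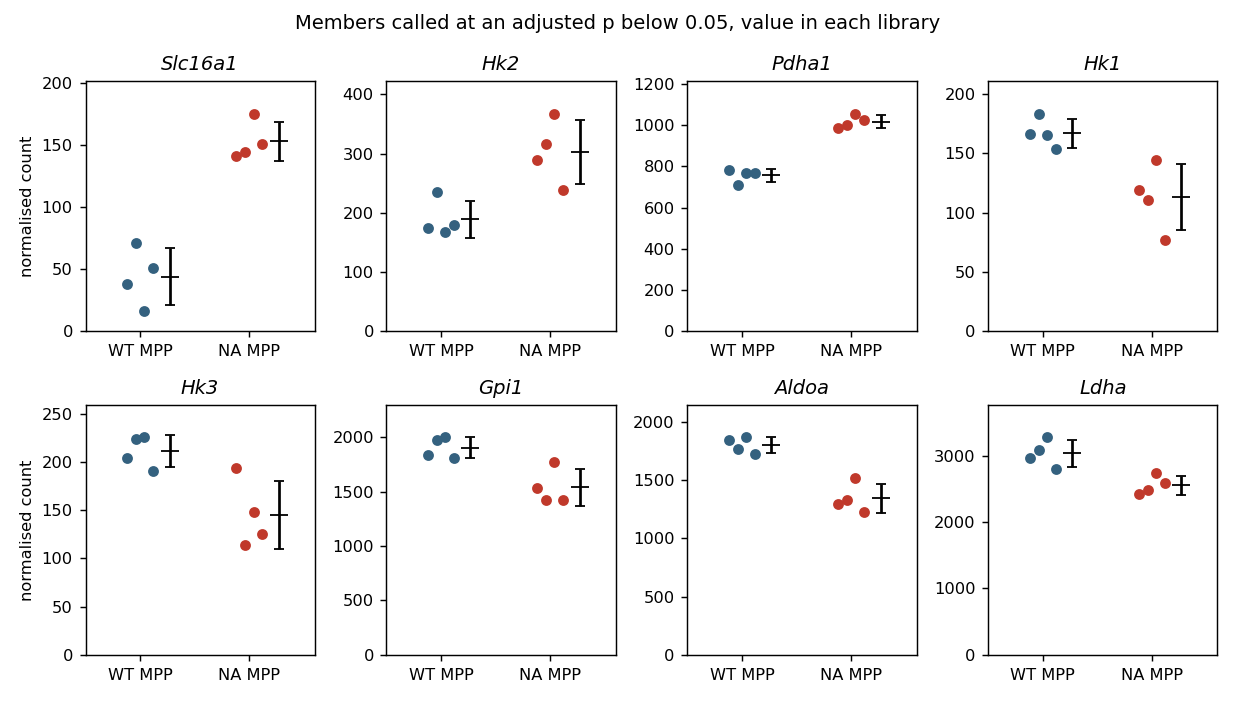
Normalised counts (y axis, from 0) of the 8 members called at an adjusted p below 0.05, with 1 point per library, WT in blue and NA in red, and the mean with its SD beside them. Groups are apart for 7 of the genes, and for Hk3 NA1 at 193 lies within the WT range.

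The genes of the triose phosphate steps, which yield ATP and pyruvate, did not pass singly, and 5 of 6 lay below 0. Tpi1, the triose phosphate isomerase gene, measured 519 to 680 in NA and 629 to 712 in WT MPPs (log2 fold change -0.26, limma adjusted p = 0.0964). Gapdh, which encodes the dehydrogenase that makes NADH, measured 1878 to 2367 and 2302 to 2708 (-0.21, adjusted p = 0.110). Pkm, the pyruvate kinase gene, measured 1099 to 1587 and 1471 to 1628 (-0.25, adjusted p = 0.112). Without NA3, which had the highest value of the NA group in all 3 of these genes, they were called lower, Tpi1 at -0.34 (adjusted p = 0.0219), Gapdh at -0.26 (adjusted p = 0.0448) and Pkm at -0.35 (adjusted p = 0.0186). With scaling by the total count they were called too.

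Pgam1, the phosphoglycerate mutase gene, measured 465 to 568 and 546 to 627 (-0.19, adjusted p = 0.190). Eno1, the enolase gene, measured 282 to 371 and 347 to 433 (-0.27, adjusted p = 0.15). Pgk1, an X-linked gene whose kinase makes ATP, was the only gene of these steps above 0, at 1440 to 1530 against 1245 to 1499 (0.11, adjusted p = 0.362). Gapdh has 40 near-identical gene copies in the table, which held 1.43% of its value, and those of the other members with such copies, Eno1, Gpi1, Ldha, Ldhb, Pgam1 and Pgk1, held 0 to 0.734%. Adding them changed no call.

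Of the lactate dehydrogenases, which interconvert pyruvate and lactate, Ldha was called lower and Ldhb was not. Ldha (ENSMUSG00000063229), whose subunit favours lactate formation, measured 2419, 2476, 2739 and 2584 in NA1 to NA4 and 2971, 3087, 3276 and 2799 in WT1 to WT4. NA3 lay just below WT4 and the groups did not overlap. It fell by 0.25 on the log2 scale (SE 0.076, limma adjusted p = 0.0361). The value was -0.29 without NA4 and WT4 (adjusted p = 0.0963), and the call was lost without NA1, NA2, NA4, WT1, WT2 or WT3 alone (limma adjusted p from 0.0599 to 0.0928). The call was also lost with no low-value filter, without a variance trend and with depth class as a covariate (limma adjusted p from 0.0602 to 0.139). Ldhb, whose subunit favours pyruvate formation, measured 742 to 842 and 843 to 932, with no overlap and a log2 fold change of -0.19 that did not pass (limma adjusted p = 0.121). Ldha made up 70.6% ± 2.15 of lactate dehydrogenase transcripts per kilobase in NA and 71.4% ± 1.71 in WT MPPs (n = 4 each, SD). Among the 32 members tested, the groups did not overlap for 3 with NA above, which were the 3 called higher, and for 5 with NA below, which were Hk1, Gpi1, Aldoa, Ldha and Ldhb, where 11.5% and 10.5% of all genes stood so.

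At the entry of pyruvate into mitochondria, Pdha1 (ENSMUSG00000031299), the E1 alpha subunit of pyruvate dehydrogenase, measured 986, 1003, 1056 and 1026 in NA1 to NA4 and 782, 708, 766 and 770 in WT1 to WT4. The libraries of a group lay close together and the groups were well apart. Its log2 fold change was 0.43 (SE 0.080, limma adjusted p = 0.00259), and it was 0.43 without NA4 and WT4 as well (adjusted p = 0.0452). It was called in all 21 alternative settings. Pdha1 is X-linked, and sex and genotype cannot be told apart. It overlaps Map3k15 on the other strand, which lay at 0.923 to 2.80 in NA and at 0 to 6.83 in WT MPPs. Pdhb, the partner subunit E1 beta on an autosome, measured 602 to 711 and 604 to 691, with a log2 fold change of -0.00029 (standard error 0.093, limma adjusted p = 0.999).

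The pyruvate dehydrogenase kinases, which switch that enzyme off, did not pass. Pdk1, a known target of hypoxia-inducible factors, measured 616, 724, 763 and 744 in NA and 503, 684, 524 and 571 in WT MPPs. WT2 alone reached the NA range. Its log2 fold change was 0.32 (limma adjusted p = 0.0618), and it was called without NA1 (0.39, adjusted p = 0.0313) or without WT2 (0.41, adjusted p = 0.0204). Pdk2 measured 73.2 to 117 and 88.8 to 206 (-0.57, limma adjusted p = 0.116), and without WT3 it was called at -0.76 (adjusted p = 0.0393). The X-linked Pdk3, the most abundant kinase gene per kilobase, measured 393 to 496 and 454 to 534 (-0.17, adjusted p = 0.303). Pdk1 held 33.3% to 39.0% of the kinase transcripts per kilobase in NA libraries and 25.7% to 30.1% in WT libraries, as a description.

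In the pentose phosphate pathway no gene passed. G6pdx, the X-linked gene of the enzyme that commits glucose to the pathway, measured 276 to 379 in NA and 239 to 303 in WT MPPs (log2 fold change 0.27, limma adjusted p = 0.165). Pgd, which makes the other NADPH of the oxidative branch, measured 435, 231, 242 and 291 in NA and 390, 301, 387 and 366 in WT MPPs (-0.31, adjusted p = 0.244). NA1 was the highest of all 8, and without it Pgd was called at -0.50 (adjusted p = 0.0224). In the branch that recycles sugars, Taldo1, the transaldolase gene, measured 936, 654, 750 and 697 against 1008, 857, 938 and 972. Its log2 fold change was -0.32 (limma adjusted p = 0.0563), and it was called without NA1 at -0.43 (adjusted p = 0.00876). Tkt, the transketolase gene, measured 230 to 335 and 238 to 353 (0.0016, adjusted p = 0.996).

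Levels ranged widely along the pathway. Per kilobase in WT MPPs, Gapdh lay at 1726 ± 127, Ldha at 1718 ± 113 and Aldoa at 1193 ± 43.0 normalised counts (n = 4 each, SD), and Gapdh and Ldha did not differ beyond their spread. Taldo1 at 768 ± 52.3, Pgk1 at 763 ± 58.5, Ldhb at 688 ± 29.4, Gpi1 at 660.1 ± 33.2 and Pkm at 638 ± 26.6 followed, with overlapping SDs between neighbours (n = 4 each, SD). The hexokinases, phosphofructokinases and PFKFB genes, which control the pathway, lay between 30.8 and 65.6 at their means. Slc16a1 stood below them at 9.94 ± 5.24 in WT and reached 34.6 ± 3.50 in NA MPPs (n = 4 each, SD). Lengths are those of 1 representative transcript per gene, and amplification of the cDNA can also favour some transcripts.

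**Figure D4:**
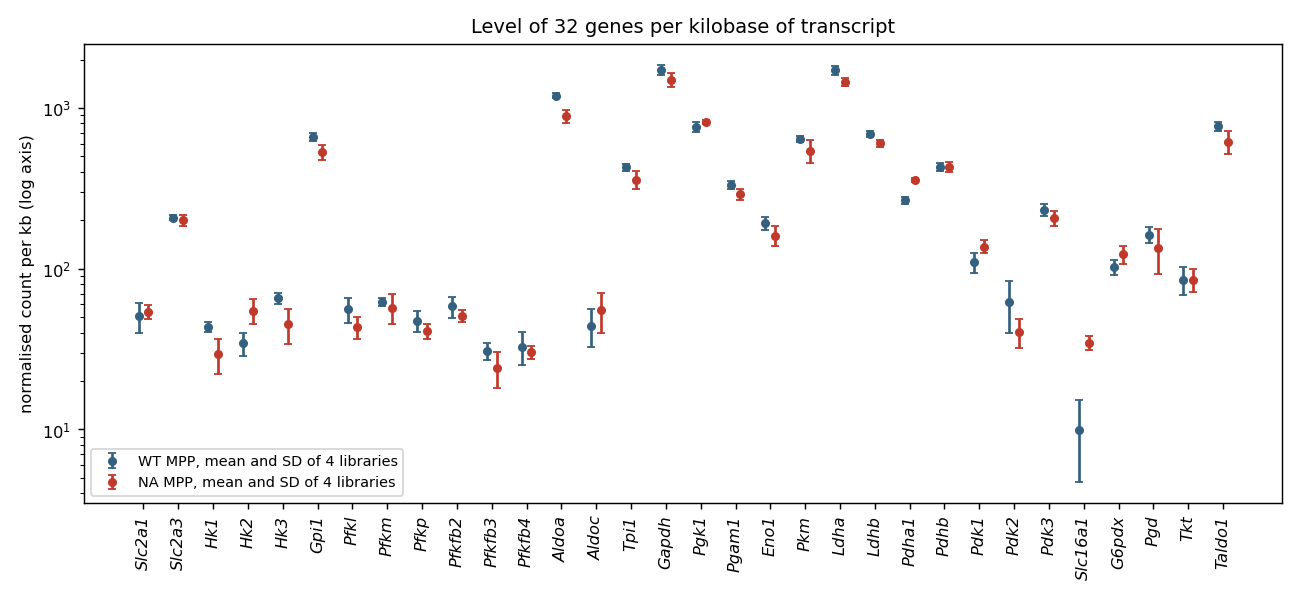
Mean level with SD of 32 members in normalised counts per kilobase of transcript (y axis, log scale), WT in blue and NA in red, n = 4 libraries each; Slc16a3, at 0 in 3 NA libraries, is not drawn. Gapdh and Ldha are highest in WT MPPs at 1726 and 1718, and Slc16a1 moves from 9.94 in WT to 34.6 in NA.

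Ratios of related genes within a library, taken after the added 1, depend little on its scaling where both genes are well above 1. There were 10, compared with exact two-sided permutation tests over 70 assignments, which allow no p below 0.0286. The log2 ratio of Hk2 to Hk1 was 1.26, 1.51, 1.35 and 1.62 in NA1 to NA4 and 0.0747, 0.36, 0.0196 and 0.22 in WT1 to WT4, a difference of 1.27 with no overlap (exact permutation p = 0.0286, adjusted p = 0.0952). The difference was 0.75 for Aldoc to Aldoa, also without overlap and with the same p as Hk2 to Hk1. For Slc16a3 to Slc16a1 no size is given, since Slc16a3 was at 0 in 3 NA libraries and the added 1 sets the ratio there. For Pdk2 to Pdk1 it was -0.89 and for Pdk3 to Pdk1 -0.49 (exact permutation p = 0.0571 and adjusted p = 0.114 for each). The other 5 ratios had exact permutation p from 0.400 to 1.0. No ratio passed an adjusted 0.05, and 3 libraries against 3 could give no p below 0.1, so this permutation test could not pass without the fourth libraries.

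**Figure D5:**
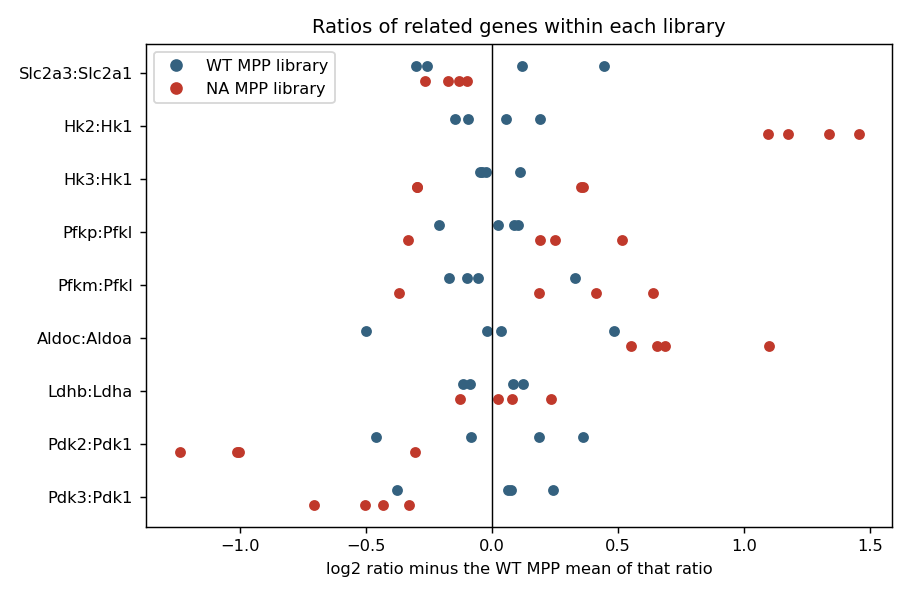
Log2 ratio of pairs of related genes in each library, minus the WT mean of that ratio (x axis), with WT libraries in blue and NA libraries in red. The groups are apart for Hk2 to Hk1 and Aldoc to Aldoa, and overlap for the other 7 pairs drawn; Slc16a3 to Slc16a1 is not drawn.

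Other genes of the same pathways went both ways. Of 73 such genes 50 were tested, 6 were called higher and 4 lower, or 12% and 8% beside 10.1% and 7.87% of all genes, and their median log2 fold change was 0.04. The highest was Pgm2, a phosphoglucomutase gene as GENCODE names it, at 103, 146, 120.0 and 123 in NA1 to NA4 and 29.3, 9.06, 15.9 and 20.4 in WT1 to WT4 (log2 fold change 2.75, limma adjusted p = 6.6e-05). It was called without NA4 and WT4 too (2.83, adjusted p = 0.00180). Pdpr, the regulatory subunit of the phosphatase that reactivates pyruvate dehydrogenase, rose by 1.54 (limma adjusted p = 0.0181) and Prkaa2, a catalytic subunit of the energy sensor AMPK, by 1.10 (adjusted p = 0.0364). Rpe, the ribulose phosphate epimerase gene, rose by 0.83 (adjusted p = 0.0114) and Fbp1, a phosphatase gene of gluconeogenesis, by 0.64 (adjusted p = 0.0274).

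Adpgk, the ADP-dependent glucokinase gene, fell by 0.91 (limma adjusted p = 0.0324) and Ldhd, which oxidises D-lactate, fell by 0.73 (adjusted p = 0.000884). Pgm1, another phosphoglucomutase gene, fell by 0.36 (adjusted p = 0.0459) and Txnip, which restrains glucose uptake, fell by 0.32 (adjusted p = 0.0188). Without NA4 and WT4, Pgm2 and Ldhd were the only calls of this list. Of 20 tricarboxylic acid cycle genes, all tested, Idh1, the cytosolic isocitrate dehydrogenase, was called higher at 0.49 (limma adjusted p = 0.0244). Idh2, its mitochondrial relative, fell by 0.36 (adjusted p = 0.0292) and the X-linked Idh3g, a regulatory subunit of the cycle's own isocitrate dehydrogenase, fell by 0.33 (adjusted p = 0.00719). These 1 and 2 of 20 stand beside 10.1% and 7.87% of all genes. None of the 20 passed without NA4 and WT4 by limma, where 1 was higher and 4 were lower at an unadjusted p below 0.05, beside 10.9% and 9.04% of all genes, and the median over the list was -0.05 with all libraries.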

How the data were processed

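The authors amplified polyA cDNA from sorted cells, sequenced Nextera XT libraries on a NextSeq instrument, quantified genes with RSEM and compared groups with DESeq2; bcl2fastq and mm10 are in the submitters' processing notes, and versions, annotation and strand use are not given in the sources used here. The deposited signal is normalised, since the authors had already divided the expected counts of RSEM by a scaling factor for each library: in each library 97.3% to 98.5% of the values over 0.5 came out as whole reads, within 0.05 of a read, on division by 1 step. The steps gave the estimated depths.

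The test was limma 3.58.1 (R 4.3.3), run on log2 of the normalised count plus 1 with a mean-variance trend, all 8 libraries and no covariate. It took genes that reached 10 normalised counts in 4 or more libraries, and it was checked on simulated data. The added 1 shrinks fold changes of low genes. The planned count models were not run, because the values are not counts. Gene names, lengths and GC content came from GENCODE M21, which named 32916 of 37980 rows, and intervals and ratios were computed in Python 3.11.15 with scipy 1.17.1. Alternatives changed the filter, pseudocount, scaling, variance model, covariates, GC trend, gene copies or libraries.

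Members and lists were chosen with earlier results of these data known. All 33 members are named. From the list of other pathway genes and that of cycle genes, the 5 highest and the 5 lowest log2 fold changes among called genes are named. Counts of 4 per group limit precision, and amplified reads without molecular identifiers are not independent molecules, so intervals cover counting error only.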

Additional observations from a re-analysis of the deposited data

Results flagged for a closer look

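In 66 groups of 4 library values, 1 group for each member and genotype, the gap of the highest or lowest library to the nearest of the others was set against Dixon's 95% limit. The test marks about 1 in 20 groups by chance, or 3.3 here, and it marked 3. Aldoc was at 217.9 normalised counts in NA3, against 129.7 to 136.3 in the other NA libraries. Tpi1 was at 628.5 in WT1, against 700.5 to 712.3 in the other WT libraries. Slc16a3 was at 0.940 in NA2, which is 1 estimated read, and at 0 in the other NA libraries.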

How the results depend on the processing

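Over 21 alternatives, 602 of 672 values of single members kept their direction and their side of the threshold, 37 lost the call, 16 gained it and 17 changed sign. Slc16a1, Hk2, Pdha1 and Aldoa were called in every alternative run. Members called higher numbered 3 or 4 throughout. Members called lower numbered 3 with no low-value filter, with Slc16a3 among them. They numbered 3 with depth class as a covariate, 3 with the GC trend removed and 1 without a variance trend. They numbered 1 without NA4 and WT4, 10 with total-count scaling, and 1 to 8 when 1 library was left out. The median over members moved to -0.26 with total-count scaling, which moved the median of all genes to -0.08, and to -0.12 with the GC trend removed. All genes called higher numbered 379 without NA4 and WT4, and 675 to 1186 with 1 library left out. All genes called lower numbered 595 without a variance trend, 145 without NA4 and WT4, and 450.0 to 1001 with 1 library left out. Of all calls, 56.1% were higher, against 41.4% with total-count scaling, where 927 were higher and 1313 lower, and 72.3% without NA4 and WT4.

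Signs that changed belonged to values near 0 that did not pass. With 1 library left out, the Slc2a1 log2 fold change ran from -0.014 to 0.20, the Pfkm log2 fold change from -0.22 to 0.022, the Pfkfb4 log2 fold change from -0.24 to 0.027, the Pdhb log2 fold change from -0.043 to 0.036, the Tkt log2 fold change from -0.098 to 0.13, the NA minus WT difference in the Hk3:Hk1 log2 ratio from -0.082 to 0.14 and that in the Ldhb:Ldha log2 ratio from -0.0084 to 0.11. Pfkfb4 was also 0.021 with the GC trend removed, Pdhb was 0.0044 with TMM scaling and 0.023 with depth class, and Tkt was -0.067 with total-count scaling, -0.035 with upper-quartile scaling and -0.0010 without NA4 and WT4. The NA minus WT difference in the Pfkp:Pfkl log2 ratio was -0.021 with the GC trend removed, and that in Hk3:Hk1 was -0.090 without NA4 and WT4. The cause was not tested. Libraries share replicate numbers across groups. Deviations of same-numbered libraries correlated at 0.087, 0.027, 0.013 and 0.16. Those of differently numbered libraries correlated at -0.094 to 0.10. NA3 correlated best with WT2, at 0.10, and NA2 with WT4, at 0.053. These small values do not settle whether the numbers pair libraries. With the replicate block, 3 members were called higher and 6 lower, Taldo1 at -0.32 (limma adjusted p = 0.0347) being added, and 1145 and 859 of all genes. The edgeR and DESeq2 alternatives were not run, because the deposited values are a normalised signal and not all of them came out as whole reads. At these depths Slc16a3 did not pass the low-value filter, and it was tested across genes only with that filter left out.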
